A study of Mus musculus with 4 samples.

Results

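The cells described here are monocytes and macrophages that carried almost no transcripts of C1q, the complement component made by resident and maturing macrophages. They were chosen by their counts, as barcodes with at least 200 genes, at most 20% mitochondrial UMIs (unique molecular identifiers, 1 per captured transcript) and 5 or more UMIs summed over Lyz2, Ccr2, Csf1r, Cd68, Fcgr1, Cybb and Ms4a6c. Members also had under 3 UMIs of C1qa, C1qb and C1qc together, under 1% of UMIs in the MHC class II genes H2-Aa, H2-Ab1, H2-Eb1 and Cd74, under 2% in 7 neutrophil genes and under 1% in 4 collagen-type genes. The rule kept 51 of the 1241 filtered cells, out of 2581 deposited barcodes. Because these genes chose the members, their levels are given as a description only.

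The tissue was mouse hindlimb at the Achilles tendon, taken 1 week after a burn of 30% of the body surface and a cut through the left Achilles tendon. The slie/slie mice carried slie, a deletion in Ddr2 that arose spontaneously, on both chromosomes and thus in every cell type, and the controls were their littermates. Ddr2 encodes a receptor for fibrillar collagen. The 4 libraries were slie/slie injured (left) limbs, control injured (left) limbs, slie/slie uninjured (right) limbs and control uninjured (right) limbs. The uninjured limbs belonged to the same burned mice, so no library came from an animal without a burn. Each library combined tissue of 2 mice, so there was 1 library per group, no replicate, and no test between groups. All intervals below are 95% intervals and cover counting error only.

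Classical monocytes leave the blood through the chemokine receptor CCR2, enter injured tissue and there become macrophages. Early arrivals make interleukin 1 and chemokines that draw neutrophils. Later cells gain lysosomal, lipid-handling and C1q genes as they clear debris and take part in repair. Monocyte-lineage precursors can also fuse into osteoclasts, the cells that resorb bone.

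Nearly all members came from the control injured library. There were 4 members among 246 filtered cells of the slie/slie injured library (1.63%, exact binomial interval 0.445 to 4.11%) and 46 among 751 of the control injured library (6.13%, 4.52 to 8.09%). The slie/slie uninjured library held 1 among 184 (0.543%, 0.0138 to 2.99%), and the control uninjured library held 0 of 60 (0 to 5.96%). The median depth of filtered cells was 1218 UMIs in slie/slie injured, 1641 in control injured, 4841 in slie/slie uninjured and 1337 in control uninjured, so a limit of 5 UMIs was easier to pass in some libraries than in others. When each cell was thinned to 500 UMIs, with 47 shallower cells of slie/slie injured and 7 of control uninjured left out, the share with at least 1 UMI of the 7 rule genes and the same exclusions was 3.02% in slie/slie injured (6 of 199 cells), 8.39% in control injured (63 of 751), 3.80% in slie/slie uninjured (7 of 184) and 7.55% in control uninjured (4 of 53, 2.09 to 18.2%). The control injured share was thus above the slie/slie injured share at both depths, while with 1 UMI as the limit the interval of the control uninjured share included the control injured share. At 500 UMIs, Lyz2 was also found in 7 of 221 collagen-rich cells of control injured (3.17%), so a share at 1 UMI is not a share of monocytes. The exclusions used the counts before thinning. With 3 or more rule UMIs before thinning, control uninjured held 0 of 60 cells and slie/slie uninjured 4 of 184. The part of depth in these shares was not tested beyond this thinning.

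**Figure D1:**
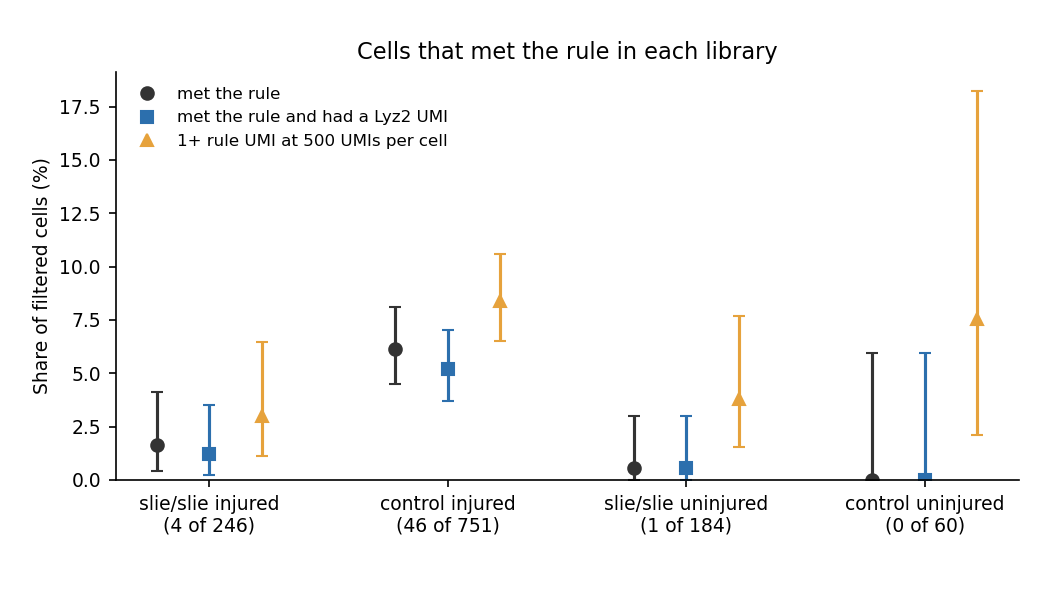
Share of filtered cells that met the rule (percent, vertical axis) in each of the 4 libraries, with exact 95% binomial intervals for counting error. Circles are all members, squares those with Lyz2 and triangles cells with 1 or more rule UMIs at 500 UMIs per cell; by the circles the slie/slie injured library stands at 1.63%, the control injured library at 6.13% and both uninjured libraries at 0.543% or 0.

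Lyz2, the lysozyme of myeloid cells, had 2236 UMIs in 43 of 51 members, or 5782 CPM (a gene's UMIs relative to all UMIs of the cells summed; 5545 to 6027 CPM). Ccr2 was found in 38 members (389 UMIs), Ms4a6c, a membrane gene of monocytes, in 32 (262 UMIs), Cybb, the catalytic subunit of the phagocyte NADPH oxidase, in 27 (117 UMIs) and Csf1r, the receptor for the macrophage growth factor CSF1, in 27 (104 UMIs). These 5 genes chose the cells and are no support for the label. Of markers that the rule did not use, the adaptor genes Tyrobp and Fcer1g were found in 43 and 44 members and the transcription factor gene Spi1 in 34, while Adgre1, which encodes the macrophage antigen F4/80, had 10 UMIs in 6 members. C1q transcripts were absent from 49 members, and the other two had 1 and 2 UMIs. Ddr2 had 1 UMI in 1 of the 51 members, a control injured cell. In collagen-rich cells, where it is normally expressed, Ddr2 had 0 UMIs in the 86 cells of slie/slie injured and 87 UMIs in 53 of the 221 cells of control injured.

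Close to the limits of the rule, 3 members had exactly 5 rule UMIs, and 4 cells with 4 UMIs failed on that criterion alone. The highest MHC class II share inside the limit was 0.993%, and the lowest of the 28 cells outside on that criterion alone was 1.21%. On the neutrophil criterion the nearest values were 1.51% inside and 5.36% outside.

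The remaining 8 members had no Lyz2 UMI and went against the label. Both classes below were recognised after their values had been seen. Of these cells, 3, all from the control injured library, were osteoclast-like: they carried Ctsk, the collagen-degrading protease of osteoclasts, at 1150, 460 and 10 UMIs, Acp5, the tartrate-resistant acid phosphatase, at 858, 362 and 39 UMIs, and Mmp9, a gelatinase, at 327, 549 and 15 UMIs. Ocstamp, needed for osteoclast fusion, had 23, 18 and 2 UMIs in the same cells. They were among the deepest cells, with 60152, 47585 and 9031 UMIs, and together held 33.2% of all member UMIs of that library. They met the rule through Cd68 and Csf1r, with 117, 42 and 4 UMIs of Cd68 and 13, 29 and 8 of Csf1r.

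The other 5 members without Lyz2 carried 3 or more UMIs of the T cell receptor subunits Cd3d, Cd3e and Cd3g. Of these, 4 belonged to the control injured library, with 15, 9, 8 and 11 UMIs of Ccr2, and 1 to the slie/slie injured library, with 7 UMIs of Ccr2, 32 of Ly6c2 and 71 of Nkg7, a granule gene of cytotoxic lymphocytes. CCR2 is also carried by some lymphocytes. Because the osteoclast-like and Cd3 members together held much of the RNA, the comparisons below are given for all 46 control injured members, with values of the 39 with Lyz2 beside the lists.

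**Figure D2:**
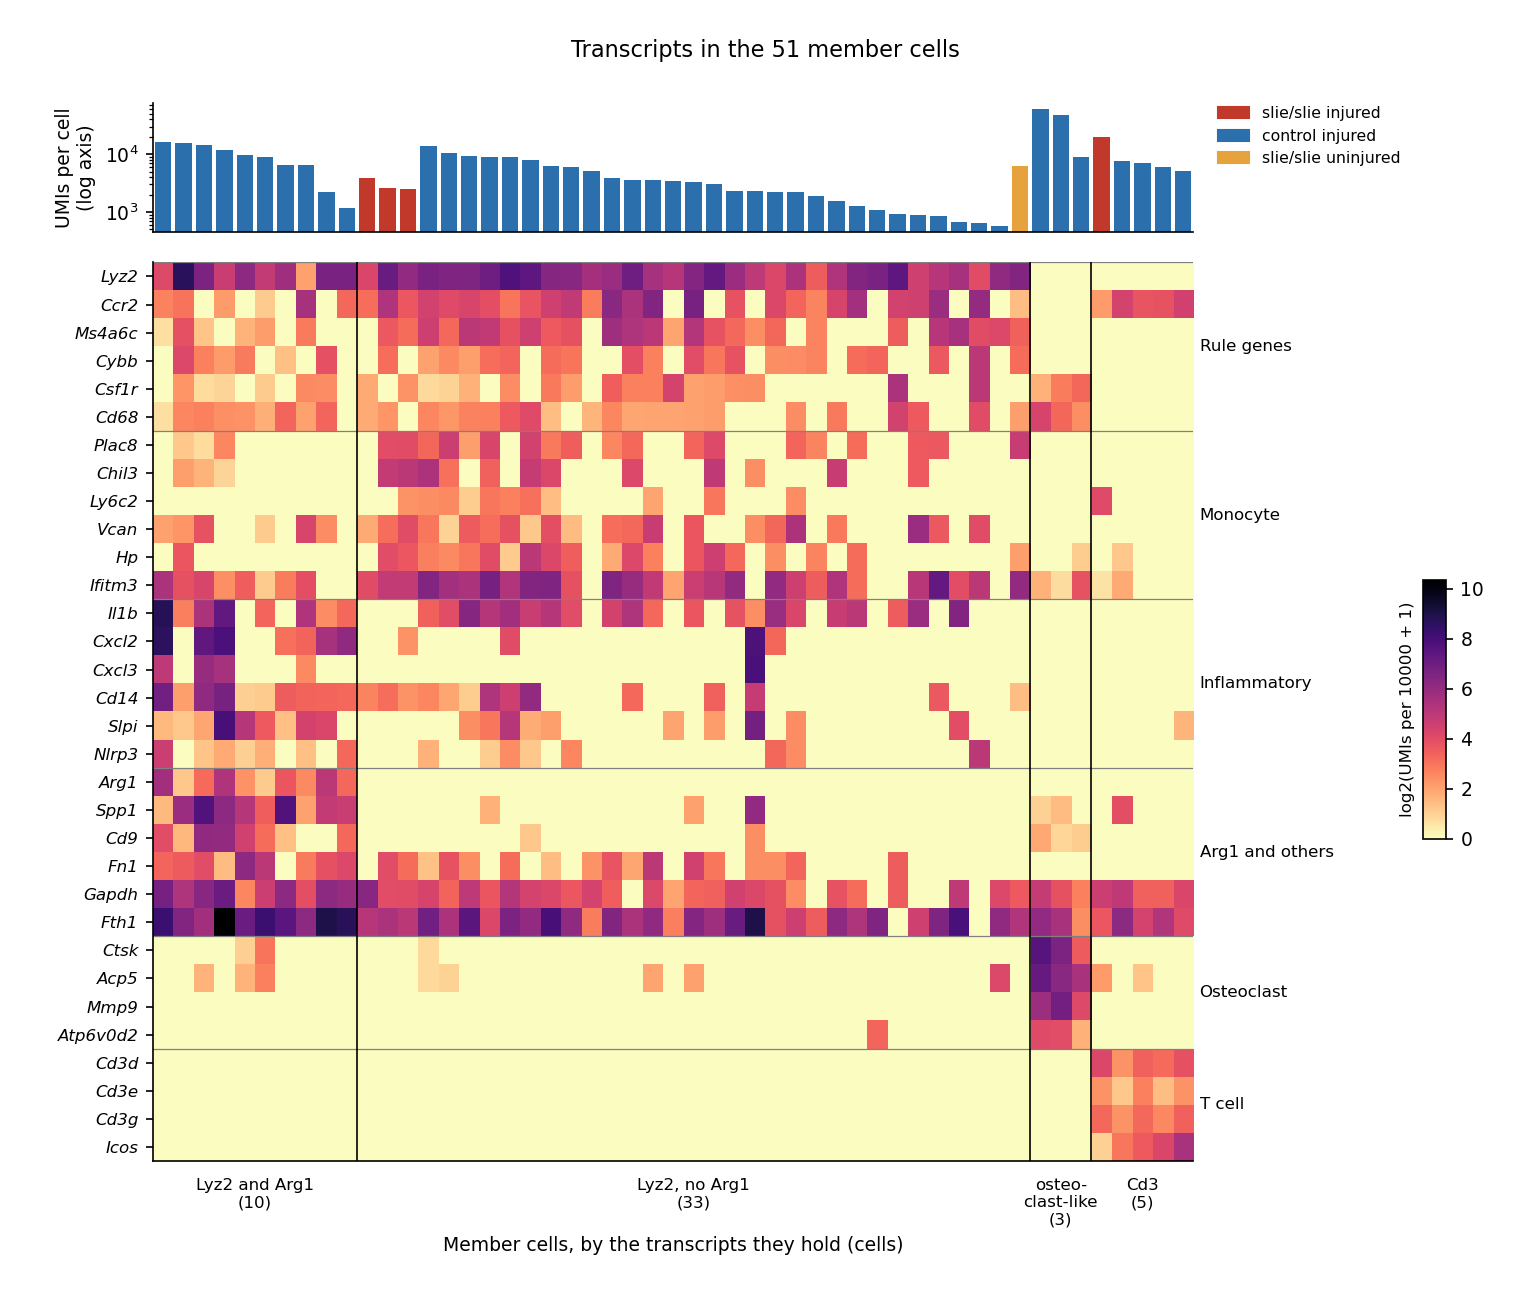
UMIs per 10000 (colour, log scale of the value plus 1) of selected genes (rows) in each of the 51 member cells (columns), grouped by library and class. Osteoclast genes are high in 3 control injured cells without Lyz2, and Arg1, Spp1 and Cxcl2 are high in a part of the Lyz2 cells.

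The slie/slie injured library held 3 members with Lyz2, of 3814, 2594 and 2522 UMIs, and their values are set beside those of the control injured members without a comparison, because 20 cells on each side were required for one. Lyz2 had 7, 35 and 17 UMIs in the 3 slie/slie cells, and 2123 UMIs in 39 control cells. Ccr2 had 3, 10 and 3 UMIs in the 3 slie/slie cells, and 322 UMIs in 29 of the 39 control cells. Thbs1, which encodes the adhesive glycoprotein thrombospondin 1, had 40 UMIs in 2 of the slie/slie cells, and 255 UMIs in 25 of the 46 control members.

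None of the 4 slie/slie injured members had a UMI of Il1b, Arg1 or Spp1, which were found in 29, 10 and 16 of the 46 control injured members. Among the 39 control injured members with Lyz2 these genes were found in 29, 10 and 13. The median depth was 3528 UMIs in those 39 and 9239.5 UMIs in the 10 with Arg1. The 4 slie/slie injured members included the Cd3 cell. With 4 cells no comparison was made, and the part of depth was not tested. Chil3, the chitinase-like gene of monocytes, was found in 2 of the 4 slie/slie injured members (15 UMIs) and 13 of the 46 control injured members (134 UMIs). The single slie/slie uninjured member had 6158 UMIs, with 54 of Lyz2, 16 of Plac8, 6 of Ms4a6c, 5 of Cybb and 1 of Ccr2, and no UMI of Il1b, Arg1 or Spp1.

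Within the control injured library, the 46 members were set against the 29 cells that met the same rule except for C1q (3 or more C1q UMIs), called C1q macrophages here. The median depth was 5020.5 UMIs in members and 5037 in C1q macrophages. Members carried far more transcripts of Il1b and of chemokines for neutrophils, more of several monocyte genes and more glycolytic transcripts. They carried less of the lysosomal, lipid-handling, CC chemokine and tissue macrophage genes. Genes needed 20 UMIs summed over the populations compared, and a ratio of 1.5-fold in either direction was called higher or lower. Of 4371 genes, 813 were higher (18.6%) and 734 lower (16.8%) in members, and 461 of the higher and 390 of the lower had an interval that left out equality. Over all measured genes the median log2 ratio was 0.02. For the 39 Lyz2 members, 720 of 3585 genes were higher (20.1%) and 723 lower (20.2%). The rule chose both populations from these same cells, so the values that follow are descriptions.

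Of the 8 measured genes on the list of inflammatory mediators, 7 were higher in members, with a median log2 ratio of 4.73, or 4.20 with genes at 0 on a side set to a bound of 3 counts. In the 39 Lyz2 members 7 of 8 were higher, with a median of 5.41. Il1b (ENSMUSG00000027398, chromosome 2, 129364570 to 129371139, minus strand, mm10), the gene of interleukin 1 beta, had 1286 UMIs in 29 of 46 members, or 3655 CPM, and 23 UMIs in 9 of 29 C1q macrophages, or 78.5 CPM. That is a ratio of 44.7 (29.9 to 70.0). Per cell, Il1b among the 39 Lyz2 members ran from 0 to 426 UMIs per 10000 with a median of 12.9, so most Lyz2 members carried some and a few carried very much. A single cell with 699 UMIs held more than the other 28 positive cells together. After thinning to 500 UMIs, Il1b was found in 48.7% of the Lyz2 members (32.4 to 65.2%), 3.45% of C1q macrophages and 3.17% of 221 collagen-rich cells, which should not make it. The median depths before thinning were 3528, 5037 and 1897 UMIs.

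Cxcl2, a ligand of the neutrophil receptor CXCR2, had 1236 UMIs in 10 of 46 members and 22 UMIs in 6 of 29 C1q macrophages, a log2 ratio of 5.49 (4.89 to 6.15). Its UMIs were concentrated, with 640, 270 and 230 in 3 cells. Cxcl3, a related ligand, had 247 UMIs in 5 members and 9 UMIs in 1 C1q macrophage (log2 ratio 4.37, 3.47 to 5.45), and Cxcl1 had 81 UMIs in 2 members and 1 UMI in 1 C1q macrophage (5.09, 3.19 to 8.16). Il1a, the gene of interleukin 1 alpha, had 59 UMIs in 2 members and 0 in C1q macrophages, at least 16.4-fold higher against a floor of 3 counts over the group. The chemokine and Il1a levels thus rested on few cells.

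Cxcl1, Cxcl2 and Cxcl3 lie together on mouse chromosome 5. All 5 members with Cxcl3 UMIs also had Cxcl2 UMIs, and 1 of them held 73 of the 81 Cxcl1 UMIs. The promoters are shown because the genes were found together in these cells and because their windows share an 11-base run, GGGAATTTCCC, that has the form of an NF-kappa B site. The first 10 bases are in capitals. Nfkbia, an inhibitor and target of NF-kappa B, holds the same 10 bases on the opposite strand. Each line is read 5′ to 3′ on the gene's own strand, from RefSeq (GRCm38.p6).
Cxcl1, chr5:90891149-90891208, plus strand: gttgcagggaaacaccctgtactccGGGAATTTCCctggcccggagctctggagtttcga
Cxcl2, chr5:90903777-90903836, plus strand: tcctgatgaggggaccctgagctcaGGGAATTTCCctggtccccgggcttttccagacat
Cxcl3, chr5:90786003-90786062, plus strand: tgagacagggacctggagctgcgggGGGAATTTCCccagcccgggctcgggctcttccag
Nfkbia, chr12:55492648-55492701, minus strand: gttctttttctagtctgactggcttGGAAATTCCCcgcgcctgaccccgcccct
The capitals began 71, 97, 73 and 29 bases before the gene start in the order of the lines. Searched on both strands of the 250 bases before each gene start, GGGAATTTCC (reverse complement GGAAATTCCC) was found in 28 of 32851 promoters (0.0852%) and the 11-base run, which contains it, in 14 (0.0426%). The windows of Il1b, Il1a, Nlrp3, Tnfaip3, Il1rn, Ptgs2 and Tnf did not hold the 10 letters. A match of letters is not a measured binding site.

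Nfkbia itself had 567 UMIs in members and 137 in C1q macrophages (log2 ratio 1.78). Nlrp3, the sensor of the inflammasome that matures interleukin 1 beta, had 66 and 11 (2.22). Among sensors of bacterial products, Cd14 had 566 UMIs in members and 62 in C1q macrophages (2.91, 2.53 to 3.31), and Tlr2 had 40 and 6 (2.29). Slpi, a secreted inhibitor of neutrophil proteases, had 443 UMIs in 20 members and 37 UMIs in 9 C1q macrophages (3.28, 2.80 to 3.80). A single member of 11682 UMIs held 297 of them, which left 146 in the other members. At 500 UMIs per cell, Slpi was found in 23.1% of Lyz2 members (11.1 to 39.3%) and 6.90% of C1q macrophages (0.846 to 22.8%). The share was 4% in dendritic-like cells and 23.1% in collagen-rich cells. Lyz2 members thus had no higher share than collagen-rich cells, and whether collagen-rich cells make Slpi was not tested. Il1rn, the interleukin 1 receptor antagonist, had 87 UMIs in members and 110 in C1q macrophages (-0.60), but its log2 ratio was 0.12 in the 39 Lyz2 members.

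Cells with almost no mitochondrial transcripts weighed on these values. Without the 10 members and 3 C1q macrophages under 0.5% mitochondrial UMIs, the log2 ratio of Cxcl2 was 1.80 and that of Cd14 was 0.02, so the Cd14 difference was gone, while the log2 ratio of Il1b was 4.79. Cxcl3 stood at 2.49, Slpi at 1.81, Nfkbia at 0.91 and Nlrp3 at 0.80, and the median of the inflammatory list was 1.35 over 6 genes. Leaving out the 7 members without Lyz2 lowered the member total to 209262 UMIs, which by itself raised the log2 ratio of each gene absent from those 7 cells by 0.75.

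On the classical monocyte list, 5 of 7 measured genes were higher in members and 1 lower, with a median log2 ratio of 1.19. In the 39 Lyz2 members 6 of 7 were higher and none lower, with a median of 1.91. Vcan, which encodes the matrix proteoglycan versican, had 133 UMIs in members and 33 in C1q macrophages (1.71). Plac8 had 113 and 34 UMIs (1.44), Chil3 134 and 47 (1.23), Hp, the gene of haptoglobin, 122 and 44 (1.19), and Ms4a4c 49 and 19 (1.06). Ly6c2, which encodes the surface antigen used to sort classical monocytes, had 34 UMIs in 10 of 46 members and 68 UMIs in 3 of 29 C1q macrophages (-1.24), so its sum in C1q macrophages rested on 3 cells. In the Lyz2 members its log2 ratio was -0.49, and at 500 UMIs per cell it was found in 5.13% of Lyz2 members and 3.45% of C1q macrophages. Among the genes of the rule, Ccr2 had 365 UMIs in members and 62 in C1q macrophages (2.27), whereas Lyz2 itself was lower in members, with 2123 and 3826 UMIs (-1.11, or -0.36 in the Lyz2 members).

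Genes of adhesion and clot breakdown included Thbs1, with 255 UMIs in members and 57 in C1q macrophages (1.88), and Plaur, the urokinase receptor, with 156 and 32 UMIs (1.99). With cells weighted equally, the log2 ratio of Thbs1 was 0.66, and that of Plaur was 0.73 without the cells under 0.5% mitochondrial UMIs. The matrix remodelling list as a whole had 5 genes higher and 3 lower of 12, with a median of 0.24.

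Glycolytic enzymes were higher together, 12 of 16 in members and none lower, with a median log2 ratio of 0.80. Slc16a3, the lactate exporter, had 77 UMIs in members and 13 in C1q macrophages (2.21), Aldoa 442 and 187 (0.97), Pkm 502 and 241 (0.79) and Gapdh 1075 and 553 (0.69). In the Lyz2 members 13 of 14 were higher. Without cells under 0.5% mitochondrial UMIs, 3 of 13 were higher and 1 lower, with Gapdh at 0.08 and Slc16a3 at 1.07. In that setting 20.9% of all measured genes were higher and 16.5% lower, so the list did not stand out there.

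All 7 measured tissue macrophage genes were lower in members, with a median log2 ratio of -3.14, or -2.39 in the Lyz2 members. Pf4, a chemokine gene of platelets and resident macrophages, had 45 UMIs in members and 1652 in C1q macrophages (-5.43, -5.89 to -5.01). Mrc1, the mannose receptor, had 6 and 123 UMIs (-4.41), Cbr2 4 and 107 (-4.70), Sepp1, the gene of selenoprotein P, 37 and 201 (-2.67), the scavenger receptor Stab1 12 and 57 (-2.42), and the transcription factor Maf 51 and 131 (-1.61). Mertk, a receptor for dying cells, had 2 UMIs in members and 21 in C1q macrophages (-3.14). The direction was shared by every measured gene of this list also in the Lyz2 members and without the cells under 0.5% mitochondrial UMIs.

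Lipid-handling and repair genes were lower for 10 of 12, and for 9 of 12 in the Lyz2 members, where the median log2 ratio was -1.98. Fabp5, a fatty acid carrier, had 110 UMIs in members and 1924 in C1q macrophages (-4.38, -4.67 to -4.10). Gpnmb had 2 and 75 UMIs (-4.93, -7.24 to -3.32), the lipase Lpl 15 and 130 (-3.30), Apoe 350 and 2183 (-2.90), Spp1, the gene of osteopontin, 706 and 3208 (-2.45) and the lipid receptor Trem2 30 and 131 (-2.35). With cells weighted equally, Spp1 was -1.19. After thinning, Spp1 was found in 20.5% of Lyz2 members (9.30 to 36.5%) and 17.2% of C1q macrophages (5.85 to 35.8%). The share was 18.6% in collagen-rich cells. The share of Lyz2 members with Spp1 was thus not lower than that of C1q macrophages. The tetraspanin Cd9 was higher in members, with 254 UMIs in members and 110 in C1q macrophages (0.94). Its log2 ratio turned to -1.02 without the cells under 0.5% mitochondrial UMIs.

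Lysosomal genes were lower for 12 of 16, with a median log2 ratio of -1.37, or -1.09 in the Lyz2 members. The cathepsin Ctsl had 182 UMIs in members and 1716 in C1q macrophages (-3.49), the protease Lgmn 91 and 435 (-2.51), Ctsb 271 and 1264 (-2.48), Ctsd 150 and 640 (-2.35) and Ctss 520 and 1424 (-1.72). With cells weighted equally, Ctsl was -1.80 and Ctss was -0.86. Of iron and heme genes, 5 of 8 were lower: Hmox1, which breaks down heme, had 108 UMIs in members and 311 in C1q macrophages (-1.78), Ftl1 2523 and 5008 (-1.25) and Fth1 4707 and 7840 (13379 and 26753 CPM). Over all members 1 of the 8 was higher, and the list median was -1.05. In the Lyz2 members 3 of 7 iron and heme genes were lower and 2 higher, with a median of -0.49. The log2 ratio of Fth1 was -0.49 in the Lyz2 members.

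CC chemokines, which draw monocytes and lymphocytes, were lower for 4 of 5, also in the Lyz2 members, where the median log2 ratio was -2.06. Ccl8 had 0 UMIs in members and 295 in 9 C1q macrophages, at least 118-fold lower against a floor of 3 counts, and Ccl12 had 0 and 59 (at least 23.6-fold lower). Ccl6 had 214 and 938 UMIs (-2.39), or -0.74 with cells weighted equally. Ccl2 had 5 and 34 UMIs (-2.81), or -0.42 with cells weighted equally.

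The osteoclast-type list rested on the 3 osteoclast-like cells. Among all 46 members, 8 of 9 measured genes were higher than in C1q macrophages, with a median log2 ratio of 2.78. Ctsk had 1628 UMIs in members and 262 in C1q macrophages (2.37), Acp5 1275 and 207 (2.35), Mmp9 891 and 17 (5.37), and Ckb, a creatine kinase, 724 and 12 (5.54). In the 39 Lyz2 members all 5 measured genes of the list were lower, with a median of -2.91, Ctsk at -4.38 and Acp5 at -3.21. A single C1q macrophage of 31796 UMIs held 251 of the 262 Ctsk UMIs and 169 of the 207 Acp5 UMIs. The lower Ctsk and Acp5 values thus rested largely on 1 reference cell, and ratios without it were not computed. Icos, a costimulatory receptor of T cells, had 46 UMIs in 4 members, none with Lyz2, and 0 in C1q macrophages (at least 12.8-fold higher). Ltb, the lymphotoxin beta gene, had 43 UMIs in 11 members and 0 in C1q macrophages (at least 11.9-fold higher).

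Other lists were the interferon response (2 genes higher and 2 lower of 7, median 0.01), the NADPH oxidase (1 higher and 2 lower of 6, median -0.16), myeloid transcription factors (3 higher and 4 lower of 10, median 0.21) and immediate early genes (5 higher and 2 lower of 13, median 0.41, or 9 higher of 13 and a median of 1.10 in the Lyz2 members). In the Lyz2 members the interferon list had 3 genes higher and 1 lower of 7, with a median of 0.44. Over all members its median was 0.55 with cells weighted equally. The median share of a cell's UMIs in it was 0.431% in Lyz2 members and 0.173% in C1q macrophages. The NADPH oxidase median was 0.04 in the Lyz2 members (2 higher and 0 lower of 6). That of the transcription factors was 0.09 (4 higher and 3 lower of 10). Within the transcription factors, Cebpb had 510 UMIs in members and 221 in C1q macrophages (0.94).

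**Figure D3:**
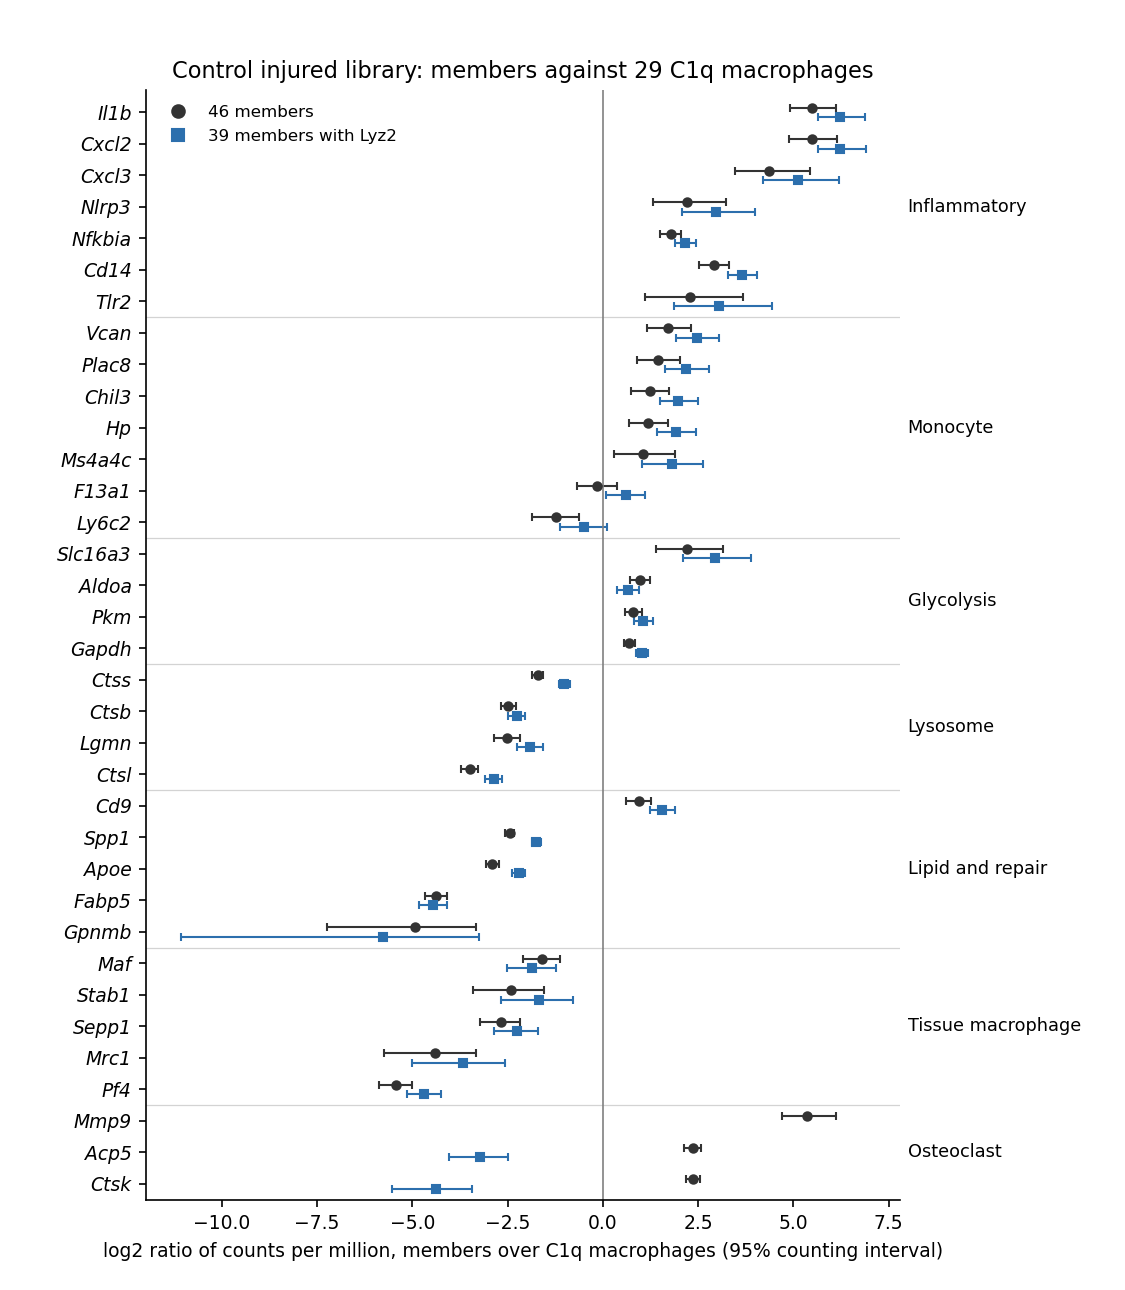
Log2 ratio of CPM (horizontal axis), members over C1q macrophages of the control injured library, for genes of 7 groups, with 95% counting intervals. Circles are all 46 members and squares the 39 with Lyz2. Il1b, Cxcl2 and most monocyte genes lie right of 0, and lysosomal, tissue macrophage and most lipid genes left of it. Acp5 and Ctsk change side, and 1 C1q macrophage held most of the reference UMIs of both.

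Members were also set against 25 dendritic-like cells of the same library. These cells met the rule except for 1% or more of UMIs in MHC class II genes. Members carried more lipid-handling, iron-storage and matrix transcripts. Inflammatory transcripts were also higher over all members, but the median of that list was not higher without the cells with almost no mitochondrial transcripts. Of 3567 measured genes, 794 were higher (22.3%) and 717 lower (20.1%) in the 46 members, with a median log2 ratio of 0.00. Among the 39 Lyz2 members 534 of 2643 were higher (20.2%) and 408 lower (15.4%). The median depth was 5020.5 UMIs in members and 3636 in dendritic-like cells.

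Spp1 had 706 UMIs in 16 members and 4 UMIs in 3 dendritic-like cells, a log2 ratio of 5.79 (4.56 to 7.41). Arg1, the gene of the arginase that depletes arginine in wound macrophages, had 165 UMIs in 10 members and 0 in dendritic-like cells, at least 21.5-fold higher. On the lipid-handling and repair list, 6 of 9 genes were higher and 2 lower (median 1.53, or 1.94 in the Lyz2 members). The tetraspanin Cd63 had 239 UMIs in members and 4 in dendritic-like cells (4.23), but 55 of the 239 were in Lyz2 members, whose log2 ratio was 2.88. Cd9, also a tetraspanin, had 254 and 7 UMIs (3.64). With cells weighted equally these log2 ratios were 2.03 for Cd63 and 1.96 for Cd9, and 4.59 for Spp1.

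Iron and heme genes were higher for 5 of 8 (median 1.49), and for 6 of 6 in the Lyz2 members (median 2.14). Fth1, a ferritin chain that stores iron, had 4707 UMIs in members and 521 in dendritic-like cells (1.82), and Hmox1 had 108 and 2 (3.83, 2.24 to 6.13). Matrix remodelling genes were higher for 8 of 11 and lower for none (median 1.64, or 2.19 in the Lyz2 members). The membrane collagenase Mmp14 had 109 UMIs in members and 4 in dendritic-like cells (3.10), of which 32 were in Lyz2 members (2.12). Fn1, the gene of fibronectin, had 223 and 27 UMIs (1.64), but at 500 UMIs per cell it was found in 15.4% of Lyz2 members, 16% of dendritic-like cells and 50.7% of collagen-rich cells, and no difference is read from it.

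Inflammatory mediators were higher for 7 of 9, with a median log2 ratio of 1.40, and for 8 of 9 in the Lyz2 members (2.14), but without cells under 0.5% mitochondrial UMIs the median was -0.15. Cxcl2 had 1236 UMIs in 10 members and 31 in 3 dendritic-like cells (3.92), or 0.00 without those cells. Cd14 had 566 and 36 UMIs (2.58), or -0.32 without them. Il1b had 1286 UMIs in members and 411 in dendritic-like cells (0.29), or 1.04 in the Lyz2 members and -1.28 without the cells under 0.5% (284 and 279 UMIs). After thinning it was found in 48.7% of Lyz2 members and 52% of dendritic-like cells. Of 8 classical monocyte genes, 1 was higher and 2 lower in all 46 members (median -0.21), while in the Lyz2 members 4 were higher and none lower (median 0.54). With cells weighted equally 6 were higher and none lower (median 0.89), so the direction of this list depended on the cells and their weights.

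Dendritic-like cells were chosen for MHC class II genes. Among the lowest genes in members was H2-DMb1, a chaperone of MHC class II loading, with 8 UMIs in members and 145 in dendritic-like cells (-5.38). The lectin Clec10a had 9 and 63 (-4.03). Cd209a, the lectin DC-SIGN family gene of monocyte-derived dendritic cells, had 0 UMIs in members and 46 in 5 dendritic-like cells, at least 39.3-fold lower, and Klrd1 had 0 and 47 in 6 cells (at least 40.1-fold lower).

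Against 138 neutrophils of the same library (2% or more of UMIs in the 7 neutrophil genes), most genes shifted. In the 46 members 1852 of 3720 genes were higher (49.8%) and 911 lower (24.5%), with a median log2 ratio over all genes of 0.57. In the 39 Lyz2 members 1260 of 2818 were higher (44.7%) and 736 lower (26.1%), with a median of 0.37. The median depth was 5020.5 UMIs in members and 1243 in neutrophils. Of the genes called higher or lower, 67.0% were higher in members; after thinning to 500 UMIs this was 44.2%, and the median over all genes was -0.22. The values below should be read against the shift of 0.57.

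Beside the genes of the rule, members were marked by the cytoskeletal gene Ahnak, with 265 UMIs in 40 members and 1 UMI in 1 neutrophil (6.33), the calcium-binding genes S100a10, with 563 UMIs and 8 UMIs (5.24), and S100a4, with 547 and 8 (5.20), and Crip1, with 983 and 24 (4.57). Lysosomal genes were higher for 13 of 16 (median 1.71), and in the Lyz2 members for 11 of 15 (median 1.41). Among them were Ctss, with 520 UMIs in members and 25 in neutrophils (3.60), and Psap, with 444 and 44 (2.58). Chil3 had 134 UMIs in members and 1 in neutrophils (5.35) and F13a1, the gene of coagulation factor XIII, 68 and 0. All 13 genes of oxidative phosphorylation were higher, with a median of 2.45, or 1.36 in the Lyz2 members.

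Inflammatory mediators were lower in members for 10 of 12 (median -2.31), and in the Lyz2 members for 9 of 12 (median -1.58). Il1b had 1286 UMIs in members and 3286 in neutrophils (-2.08), and Cxcl2 had 1236 and 6431 (-3.11). Ccl4, a chemokine for monocytes and lymphocytes, had 4 UMIs in 1 member and 1196 UMIs in 40 neutrophils (-8.63). Immediate early genes were lower for 13 of 14 (median -2.25, or -1.98 in the Lyz2 members). Fos had 156 and 537 UMIs (-2.51) and the phosphatase gene Dusp1 71 and 412 (-3.25). G0s2, an inhibitor of lipolysis, had 0 UMIs in members and 269 in neutrophils (at least 149-fold lower).

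The 39 Lyz2 members of the control injured library were also divided by Arg1. The 10 cells with an Arg1 UMI carried 82, 45, 12, 8, 7, 4, 3, 2, 1 and 1 of them, and the other 29 carried none. Arg1 members were deeper, with a median of 9239.5 UMIs, against 3019 UMIs in those without, and 5 of 10 had under 0.5% mitochondrial UMIs, against 5 of 29. A transcript is more easily found in a deep cell, and the part of depth in this division was not tested. Of 1667 measured genes, 326 were higher (19.6%) and 427 lower (25.6%) in Arg1 members, with 186 and 223 of these having an interval that left out equality and a median log2 ratio over all genes of -0.10.

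Spp1 went with Arg1. It had 298, 137, 87, 84, 34, 9, 6, 3, 3 and 2 UMIs in the 10 Arg1 members and 18 UMIs in 3 of the 29 others (log2 ratio 5.45, 4.80 to 6.19). At 500 UMIs per cell, Spp1 was found in 60% of Arg1 members (26.2 to 87.8%) and 6.90% of those without (0.846 to 22.8%). The share was 4% in dendritic-like cells and 18.6% in collagen-rich cells, and whether collagen-rich cells make Spp1 was not tested. Cd9 had 231 UMIs in 8 Arg1 members and 2 UMIs in 2 others (6.60, 5.03 to 8.89). Cd63 had 50 and 5 UMIs (3.41), and Cd36, a scavenger receptor for lipids, 35 and 5 (2.91). In all, 7 of 9 lipid-handling and repair genes were higher and 1 lower (median 1.40), and the median was 1.79 without cells under 0.5% mitochondrial UMIs.

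Glycolytic genes were higher in Arg1 members for 11 of 13 and lower for 1 (median 1.61). Gapdh had 612 UMIs in Arg1 members and 188 in those without (2.02), with per-cell medians of 65.4 and 11.9 UMIs per 10000. Aldoa had 170 and 40 UMIs (2.39), Tpi1 116 and 27 (2.39) and Pgk1 33 and 6 (2.61). Without cells under 0.5% mitochondrial UMIs, the log2 ratios were 0.92 for Gapdh, 1.45 for Aldoa and 0.32 for Tpi1, and the median of the list was 0.18 over 10 genes. Iron genes were higher for 5 of 6 (median 1.45). Fth1 had 2947 UMIs in Arg1 members and 1049 in those without (1.82), or 0.59 without the low mitochondrial cells. A single Arg1 member of 11682 UMIs held 1512 of them, which left 1435 in the other 9, and the per-cell medians were 242 and 68.0 UMIs per 10000.

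Inflammatory mediators were higher for 8 of 8 measured genes in Arg1 members (median 2.40) but rested on a few cells. Cxcl2 had 640, 270, 230, 10, 8, 6 and 5 UMIs in 7 Arg1 members and 51, 14 and 2 UMIs in 3 of those without (4.43). Il1b had 699, 183, 60, 25, 9, 8, 1 and 1 UMIs in 8 Arg1 members and 300 UMIs in 21 of those without (2.04, 1.85 to 2.23). The per-cell medians of Il1b ran the other way, at 8.77 UMIs per 10000 in Arg1 members and 15.1 in those without. Cd14 had 435 and 131 UMIs (2.05), Nfkbia 348 and 93 (2.22) and Plaur 110 and 45 (1.60). Slpi had 368 and 74 UMIs (2.62), of which 297 were in the Arg1 member of 11682 UMIs, which left 71 in the other 9.

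With the cells under 0.5% mitochondrial UMIs left out, 5 Arg1 members and 24 others remained, and the direction turned for Cxcl2 (-1.45), Il1b (-1.45), Cd14 (-0.05), Plaur (-0.38) and the inflammatory median (-1.45). Without the 3 deepest cells of each side, Cxcl2 stood at 2.98, Il1b at 0.98, Cd14 at 1.05 and Nfkbia at 0.82. The 10 Lyz2 members under 0.5% had 17913 CPM of Cxcl2, 15500 CPM of Il1b and 2274 CPM of Arg1, and the 29 others 539, 1964 and 124 CPM. The part of this low share in the result was not tested. Of the 138 neutrophils of the library, 120 were also under 0.5%, and the neutrophils had 30287 CPM of Cxcl2 and 15475 CPM of Il1b. Of 12 neutrophil markers, 3 were measured in the Arg1 split: S100a8 had 151 UMIs in Arg1 members and 10 in those without, Il1r2 25 and 3, and S100a9 5 and 22. The Arg1 member of 11682 UMIs held 136 of the S100a8 UMIs and all 25 of Il1r2, with 270 UMIs of Cxcl2. The neutrophil marker list made up 0 to 1.51% of UMIs in Arg1 members (median 0.0323%), 0 to 0.308% in those without (median 0.0283%) and 2.09 to 43.7% in neutrophils (median 10.8%), and Retnlg and Cxcr2 were at 0 in all 46 members. The rule kept 7 neutrophil genes under 2% in members and chose neutrophils at 2% or more, so this gap was set by the choice of cells. The part of neutrophil RNA in the result was not tested.

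**Figure D4:**
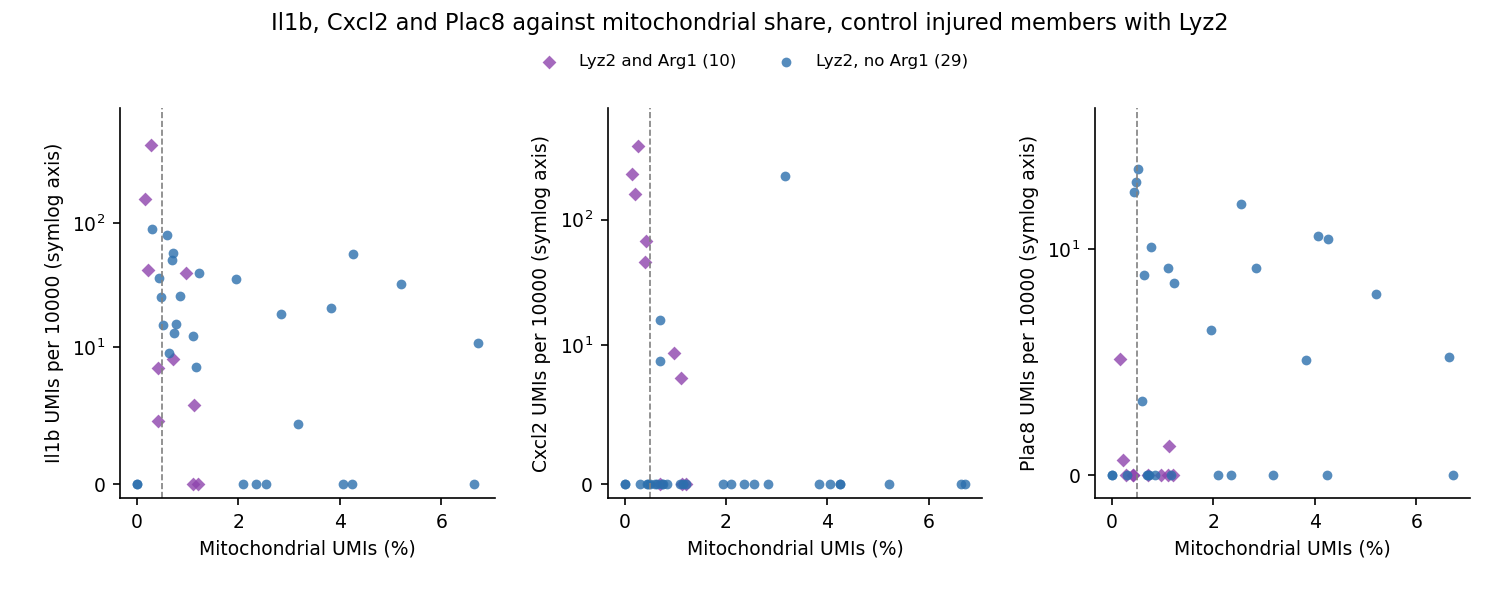
UMIs per 10000 of Il1b, Cxcl2 and Plac8 (vertical axes, linear near 0 and logarithmic above) against the mitochondrial share of UMIs (percent, horizontal axis) for the 39 control injured Lyz2 members. Diamonds are the 10 Arg1 members and circles the 29 without; the dashed line marks 0.5%, left of which lie the 5 highest Cxcl2 values of Arg1 members.

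Classical monocyte genes lay on the other side, lower in Arg1 members for 6 of 7 and higher for 1 (median -2.88). Chil3 had 9 UMIs in 3 Arg1 members and 125 UMIs in 10 of those without (-3.33), Plac8 9 in 3 and 104 in 16 (-3.07), and Ms4a4c 4 and 45 (-2.88). Ly6c2 had 0 UMIs in Arg1 members and 34 in 10 of those without, at least 9.04-fold lower, and Ifitm6 had 0 and 38 (at least 10.1-fold lower). The exception was F13a1, with 42 and 26 UMIs (1.00). Among genes of the rule, Ccr2 had 55 UMIs in Arg1 members and 267 in those without (-1.93), and Ms4a6c had 34 and 217 (-2.31). Every cell needed 5 UMIs of the rule genes, so a shallower cell had to carry a larger share of them, and nothing is read from these values.

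All 4 measured interferon response genes were lower in Arg1 members (median -1.75). Ifitm3, an antiviral membrane gene, had 146 UMIs in Arg1 members and 624 in those without (-1.76), with per-cell medians of 8.21 and 33.1 UMIs per 10000, and Ifi27l2a had 24 and 165 UMIs (-2.41). The chemokine Ccl6 had 20 and 194 UMIs (-2.89). Without the cells under 0.5% mitochondrial UMIs, Chil3 stood at -2.95, Plac8 at -3.51, Ccl6 at -1.90 and Ifitm3 at -2.25, all still lower in Arg1 members. At 500 UMIs per cell, Plac8 was found in 0 of 10 Arg1 members (0 to 30.8%) and 34.5% of those without (17.9 to 54.3%), so the intervals overlapped. Its share in collagen-rich cells was 3.17%. Chil3 was likewise found in 0 and 17.2%, and Ly6c2 in 0 and 6.90%, of Arg1 members and those without.

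**Figure D5:**
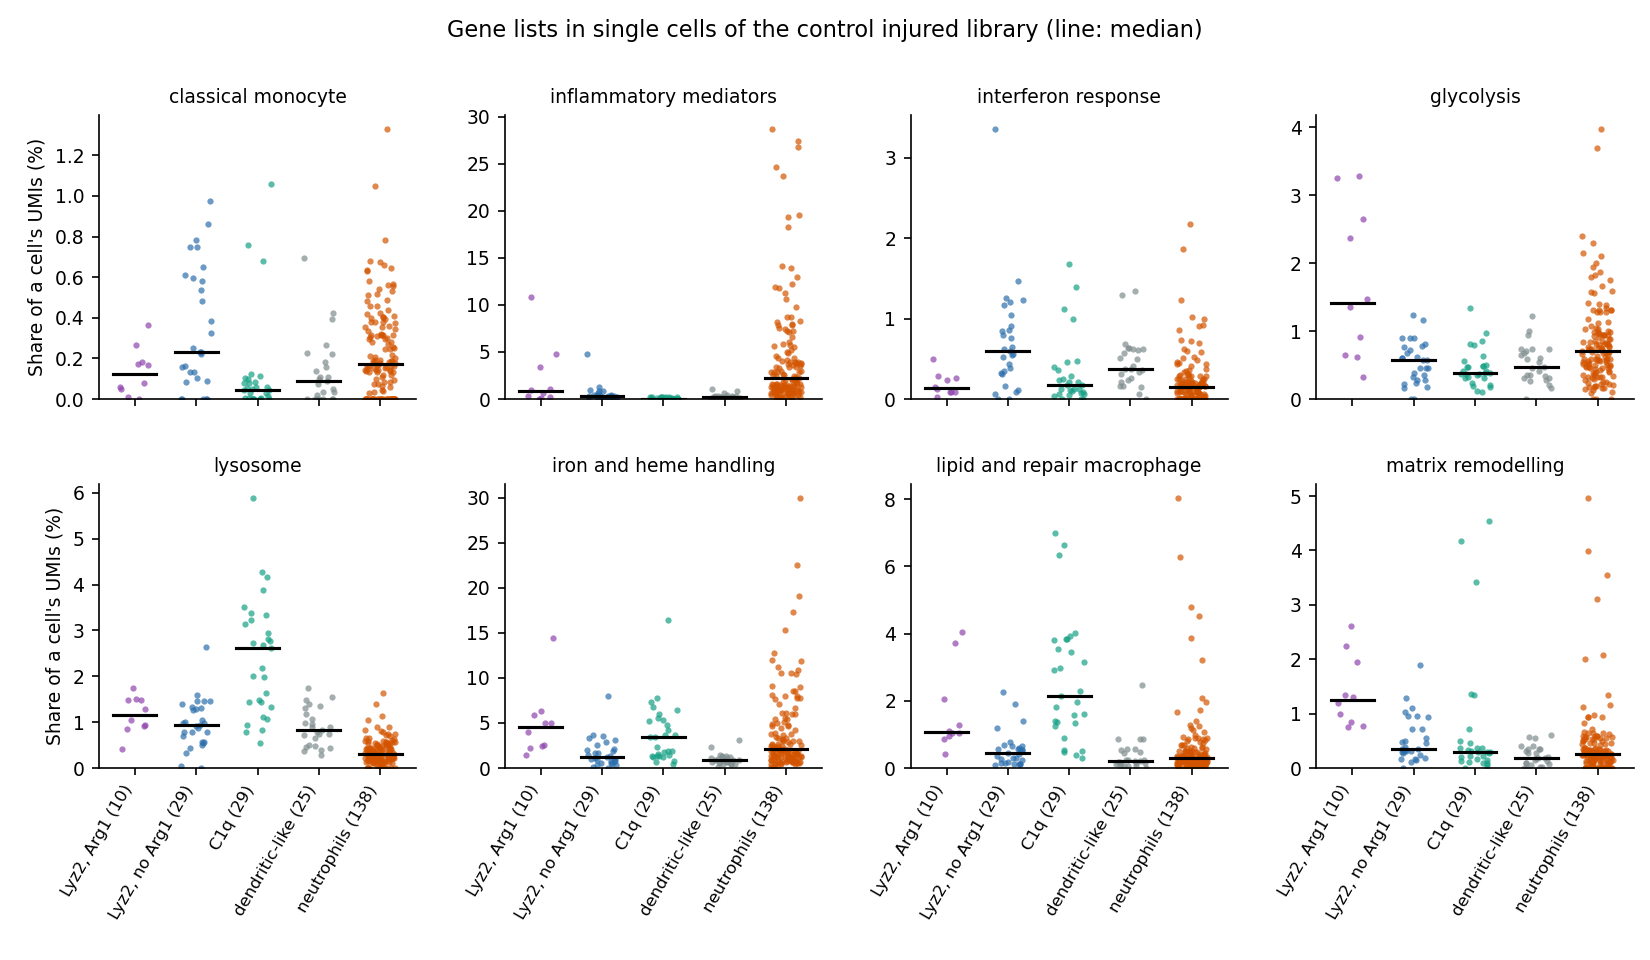
Share of each cell's UMIs (percent, vertical axis) in gene lists, for Arg1 members, Lyz2 members without Arg1, C1q macrophages, dendritic-like cells and neutrophils of the control injured library; points are cells and horizontal lines medians. Median glycolytic shares were 1.41% in Arg1 members and 0.567% in members without Arg1, and median lysosomal shares 2.61% in C1q macrophages.

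Per cell, list shares differed between the populations. The median share of UMIs in inflammatory mediators was 0.808% in Arg1 members, 0.272% in members without Arg1, 0.0525% in C1q macrophages, 0.177% in dendritic-like cells and 2.20% in neutrophils. For lysosomal genes these medians were 1.16, 0.940, 2.61, 0.829 and 0.295% in the same order, and for tissue macrophage genes 0.0214, 0.0305, 0.871, 0.0449 and 0%. The lipid-handling share was 1.07% in Arg1 members, 0.448% in members without Arg1 and 2.14% in C1q macrophages. Arg1 itself was also found in 9 of 29 C1q macrophages, with 65 UMIs.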

How the data were processed

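Single-cell RNA sequencing was done on 4 libraries, 1 per group, from digested hindlimb tissue. The authors deposited raw UMI counts for 27998 genes in each barcode. Cell Ranger 5.0.1 wrote these matrices, per the file headers, and mm10 is the genome in the submitters' processing notes. The sources used name no chemistry, annotation or barcode calling settings. UMIs were summed over the cells of a population, 1 was added to each sum, and ratios of CPM were formed. Intervals at 95% were exact: conditional binomial for a ratio, Poisson for a CPM and Clopper-Pearson for a share. Cells of 1 library are not replicates, so no p-values were computed. Populations needed 20 cells, except the Arg1 split, which describes spread within 1 library. Genes of the rule were left out of counts of genes.

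The members, gene lists and comparisons were chosen with earlier results of these data known. Named genes were the 12 highest and 12 lowest per comparison with at least 30 UMIs, ranked by the interval bound nearest to equality, the 4 members of each list with the most UMIs, the genes of the rule and Ddr2; Slc16a3, Cd36, Lpl, Mertk, Tlr2, Ocstamp, Nkg7, Gpnmb and other list members outside that rule were chosen after their values were seen. Clec7a, Cebpd and Trac were not analysed here. The classes osteoclast-like (0.5% or more of UMIs in osteoclast genes) and Cd3 (3 or more UMIs) were defined with the members' values in view, and the same holds for the alternatives without members lacking Lyz2, the share after thinning and those of the Arg1 split. Doublets were scored with Scrublet and kept: 1 of 246 cells was called in slie/slie injured, 0 of 751 in control injured and 4 of 184 in slie/slie uninjured, none a member. Filtered cells shared 1 barcode between libraries, and no member did. Sequences came from RefSeq and coordinates from GENCODE. Scripts were tested on simulated data and run with Python 3.11.15, numpy 2.4.6, scipy 1.17.1 and scanpy 1.11.5.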

Additional observations from a re-analysis of the deposited data

How the results depend on the processing

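Leaving out cells under 0.5% mitochondrial UMIs put the control injured share at 9.68% (6.87 to 13.1%), beside 3.19% (3 of 94, 0.663 to 9.04%) for slie/slie injured, so these intervals overlapped. Counting 1 UMI of the rule genes after thinning to 500 UMIs put it at 8.39%, the slie/slie uninjured share at 3.80% and the control uninjured share at 7.55%. Counts of genes moved with how many were measured. After thinning, genes higher and lower were 62 and 45 against C1q macrophages, 39 and 42 against dendritic-like cells, 228 and 288 against neutrophils, and 33 and 43 in the Arg1 split. With a minimum of 1 UMI they were 3433 and 3021, 2320 and 3306, and 5473 and 2766. With Lyz2 members only, 408 genes were lower than in dendritic-like cells. In the Arg1 split 184 genes were higher and 258 lower without the cells under 0.5%, and 279 were lower without the 3 deepest cells of each side. Values of 1.5-fold or more turned direction in these cases. With Lyz2 members only, against C1q macrophages, the osteoclast-type median was -2.91, Ctsk -4.38, Acp5 -3.21 and Atp6v0d2 -2.91, and Ckb was -2.61 against dendritic-like cells. Without cells under 0.5%, Cd9 was -1.02 against C1q macrophages, the inflammatory median -0.15 and Cd14 -0.32 against dendritic-like cells, and in the Arg1 split the inflammatory median was -1.45, matrix remodelling -0.11, Cxcl2 -1.45, Il1b -1.45, Cd14 -0.047 and Plaur -0.38. The glycolysis median against dendritic-like cells was -0.050 after thinning. Medians under 1.5-fold also changed sign. Against dendritic-like cells, the classical monocyte median of -0.21 was 0.36 without cells under 0.5%, 0.54 in the Lyz2 members and 0.89 with cells weighted equally, and against C1q macrophages the NADPH oxidase, matrix remodelling and myeloid transcription factor medians did so. The cause was not tested. Of values of single genes, 806 stayed within the counting interval, 232 moved beyond it and 10 reversed. Of list medians, 180 moved by less than 1.5-fold, 36 by more and 5 reversed. No paired analysis was possible because each group had 1 library. Not run, for want of 20 members or cells, were the alternatives of the genotype and injury comparisons and the neutrophil comparison without cells under 0.5% (36 members and 18 neutrophils); Scrublet was not run in the control uninjured library, which held no member.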

Other observations

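Outside the rule, 2 further barcodes carried osteoclast genes at 0.5% or more of their UMIs. The control injured library held 1 with 31796 UMIs, of which 251 were Ctsk, 169 Acp5, 12 Mmp9, 11 Lyz2 and 5 C1q, so it counted among the C1q macrophages. The slie/slie injured library held 1 with 2079 UMIs, of which 11 were Acp5 and 1 Mmp9, with no Ctsk. With the 3 osteoclast-like members, such barcodes numbered 1 in slie/slie injured, 4 in control injured and 0 in both uninjured libraries, where 184 and 60 filtered cells were examined. These barcodes were looked at after the members' values were seen, and no comparison was made.

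The limits are these. Almost every value rests on 1 library, whose 46 members came from tissue of 2 combined mice. A difference between populations of this library has no replicate, and each contrast of genotype or injury is also a contrast of libraries, which cannot be told apart from it. Genes with few UMIs have intervals wide enough to include 1.5-fold in either direction, and transcripts in few cells, such as Cxcl1 and Il1a in 2 cells each, describe those cells only.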
